A study of Drosophila melanogaster with 18 samples.

Results

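Long TADs are described here: the topologically associating domains of 150 kb or more in 3 deposited TAD lists of *Drosophila melanogaster* BG3 cells, 1 list for each knockdown. A TAD was taken as long when its end minus its start reached 150 kb, so the members were selected on their measured length, and their length and number are given as a description with no test. Across the 3 lists 515 of 6116 TADs were long, with 271 in BEAF-32 RNAi Dref RNAi cells, 138 in Cp190 RNAi Chro RNAi cells and 106 in BEAF-32 RNAi cells, and 5601 TADs were shorter. BG3 is a cell line from the larval central nervous system. All knockdown cells were transfected with double-stranded RNA and harvested after 72 hours. BEAF-32 RNAi Dref RNAi cells received RNA against *BEAF-32* and *Dref*, Cp190 RNAi Chro RNAi cells against *Cp190* and *Chro*, and BEAF-32 RNAi cells against *BEAF-32* alone. WT cells were used for RNA-seq only, and the labels name no control RNA for them. Each list was called on 2 merged Hi-C replicates, so no spread between replicates exists for any TAD, and WT TADs were not analysed here. Gene expression was measured in 12 RNA-seq libraries, 3 for each knockdown and 3 for WT.

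A TAD is a stretch of chromosome whose parts touch each other more often than they touch the neighbouring stretches, and its border is where such contacts drop. In flies many borders lie at the starts of active genes, and many are bound by architectural proteins. BEAF-32 binds DNA at clusters of the motif CGATA, and Dref binds the element TATCGATA, whose letters contain that motif. Cp190 and Chro are brought to such sites by DNA-binding proteins. A TAD becomes long in a list when the caller finds no border along it, so each long TAD was also read for the borders that the other lists place inside it.

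Short stretches of DNA show such places. Each holds a TATCGATA, in capitals, next to a border that Cp190 RNAi Chro RNAi cells and BEAF-32 RNAi cells both had inside a long TAD of BEAF-32 RNAi Dref RNAi cells. They were taken from the RefSeq copy of the dm6 assembly, plus strand, and are named after the nearest expressed gene.
mEFTs, chr2L:17501107-17501194: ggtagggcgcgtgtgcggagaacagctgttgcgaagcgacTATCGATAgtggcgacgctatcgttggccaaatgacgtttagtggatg
CG10616, chr3L:12471435-12471522: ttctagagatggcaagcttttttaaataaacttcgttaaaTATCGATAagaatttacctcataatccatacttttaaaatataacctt
Syx7, chr3L:21445701-21445788: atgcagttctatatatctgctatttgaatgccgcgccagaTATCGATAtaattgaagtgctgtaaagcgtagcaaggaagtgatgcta
Cortactin, chr3R:21064740-21064827: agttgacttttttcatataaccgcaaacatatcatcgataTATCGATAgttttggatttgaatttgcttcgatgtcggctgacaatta
a6, chrX:1695922-1696009: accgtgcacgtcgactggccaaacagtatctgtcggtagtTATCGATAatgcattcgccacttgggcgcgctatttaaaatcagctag
Dbct, chrX:15086022-15086109: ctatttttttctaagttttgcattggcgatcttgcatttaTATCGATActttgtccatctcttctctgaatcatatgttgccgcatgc
The element lay 84, 98, 58, 24, 98 and 100 bp from the border in the order shown, and 41, 253, 93, 309, 73 and 63 bp from the start of the gene. None of the 6 stretches overlaps an annotated exon. The border by *CG10616* lies 2040 bp from the start of its long TAD, just past the 2 kb within which borders were counted as the same, and the other 5 lie 38040 bp or more from an end. They were picked from 103 such elements within 2 kb of 322 such borders on X, 2L, 3L and 3R, of which 47 overlap no exon, and they are examples and not a measure of how common the element is. A match of these letters was read as a description and not as a bound site.

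Some facts of the whole series touch the results below. Of 6137 borders in the 3 lists, 94.3% lay within 4 bp of a midpoint between GATC sites of the dm6 genome, the site that the DpnII digestion cuts. The RNA-seq libraries held 7178403 to 12202598 counts on genes. BEAF-32 RNAi replicate 3 was the shallowest library, with 29.5% of its reads without a unique alignment against 16 to 25.8% elsewhere, and it stood apart from its group, so counts that rest on it are given with and without it. This share was 17, 16 and 16% in the WT libraries and 21 to 25.8% in the other knockdown libraries. It thus differed between the groups in every comparison with WT, and its part there was not tested. The transcripts of the RNAi targets were lower than in WT in the knockdowns that targeted them. *BEAF-32* was at 59.4, 55 and 51 CPM (counts scaled to library size) in BEAF-32 RNAi Dref RNAi cells and 41, 44.6 and 74.8 CPM in BEAF-32 RNAi cells, against 88.6, 92.7 and 90.3 CPM in WT, with the highest knockdown value in replicate 3 of BEAF-32 RNAi. *Dref* was at 128, 134 and 128 CPM in BEAF-32 RNAi Dref RNAi cells, against 203, 206 and 211 CPM in WT. In Cp190 RNAi Chro RNAi cells *Cp190* was at 315, 287 and 290 CPM and *Chro* at 205, 187 and 197 CPM, against 436, 436 and 423 CPM and 318, 333 and 338 CPM in WT. None of these 4 genes lies in a long TAD. In the edgeR test used below, *Dref* also differed from WT in Cp190 RNAi Chro RNAi cells, and *Dref*, *Cp190* and *Chro* in BEAF-32 RNAi cells. Those knockdowns did not target these genes. In Cp190 RNAi Chro RNAi cells the calls of *Chro* and of *Dref* were each ended by 6 of 12 other settings of the fit. Of markers listed for neurons, 1 of 5 reached 1 RPKM (CPM per kilobase of exon) in all libraries of a group, the level called expressed below, of neuroblasts 1 of 4, of glia 4 of 5, of hemocytes 2 of 5, of muscle 2 of 3 and of fat body 1 of 2, with the same numbers in all 4 groups. Left out of these numbers were *wor*, also listed for neuroblasts, and *Lsp1alpha*, for fat body, which had no match or under 10 counts in total. The summed glia markers were at 156 to 164 RPKM in BEAF-32 RNAi Dref RNAi cells, 180 to 182 in Cp190 RNAi Chro RNAi cells and 113 to 166 in BEAF-32 RNAi cells, against 254 to 262 RPKM in WT, the only sum that lay apart from WT in all 3 knockdowns. Neuroblast sums, which include *mira*, were 5.54 to 6.45, 4.09 to 5.5 and 5.15 to 18 RPKM in the same order, against 11.8 to 12.2 RPKM in WT, and hemocyte sums 108 to 112, 107 to 122 and 107 to 150, against 140 to 145 RPKM. Neuron sums were 9.86 to 10.4, 9.14 to 10.9 and 7.18 to 10.7, against 7.07 to 7.65 RPKM in WT. Muscle sums were 93.2 to 112, 105 to 119 and 92.9 to 391, against 117 to 121 RPKM in WT, and fat body sums 432 to 460, 471 to 516 and 233 to 346, against 422 to 433 RPKM. The part of these sums in the comparisons of genes below was not tested.

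BEAF-32 RNAi Dref RNAi cells had the most long TADs and the smallest number of TADs. Of their 1410 TADs 19.2% were long, against 6.4% of 2156 in Cp190 RNAi Chro RNAi cells and 4.16% of 2550 in BEAF-32 RNAi cells. Long TADs covered 68.4 Mb of the 135.7 Mb tiled by TADs in BEAF-32 RNAi Dref RNAi cells (50.4%), 32.4 Mb of 135.9 Mb in Cp190 RNAi Chro RNAi cells (23.8%) and 23.5 Mb of 136.1 Mb in BEAF-32 RNAi cells (17.3%). The median TAD of any length measured 61.3 kb, 44.8 kb and 39.1 kb in the same order. The lists therefore differed along their whole length range and not at 150 kb alone. The files give no Hi-C depth, and the study's own table lists the fewest read pairs for BEAF-32 RNAi Dref RNAi cells, whose part in the number of long TADs was not tested.

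The order of the 3 knockdowns was not the same in the stricter TAD lists. The authors also deposited lists of strong TADs, which keep only the borders found at a more stringent threshold. In them TADs of 150 kb or more numbered 220 of 434 in BEAF-32 RNAi Dref RNAi cells, 288 of 862 in Cp190 RNAi Chro RNAi cells and 273 of 1129 in BEAF-32 RNAi cells. BEAF-32 RNAi Dref RNAi cells thus had the lowest number there and still the highest share, with 50.7% against 33.4% and 24.2%.

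The threshold fell among TADs of nearly equal length. The 2 shortest members measured 150.173 and 150.28 kb in BEAF-32 RNAi Dref RNAi cells, with 148.974 and 148.878 kb for the TADs just below. In Cp190 RNAi Chro RNAi cells the values were 150.043 and 150.349 kb above and 149.004 and 148.95 kb below. In BEAF-32 RNAi cells they were 150.796 and 150.841 kb above and 149.532 and 149.476 kb below. The shortest Cp190 RNAi Chro RNAi member and a non-member of BEAF-32 RNAi cells share the same start on X, at 13845427, and end at 13995469 and 13994902.

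Among the members, length ran from the threshold to over 2 Mb. The middle 50% of long TADs spanned 177 to 287 kb in BEAF-32 RNAi Dref RNAi cells (median 210 kb), 168 to 252 kb in Cp190 RNAi Chro RNAi cells (median 201 kb) and 165 to 226 kb in BEAF-32 RNAi cells (median 191 kb). TADs of 200 kb or more numbered 156, 71 and 47 in that order, and those of 300 kb or more 62, 21 and 8. The longest member of every list lay on the Y chromosome, at 2015, 1492 and 1602 kb, and off the Y the longest measured 773.5, 655.8 and 526.5 kb.

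**Figure D1:**
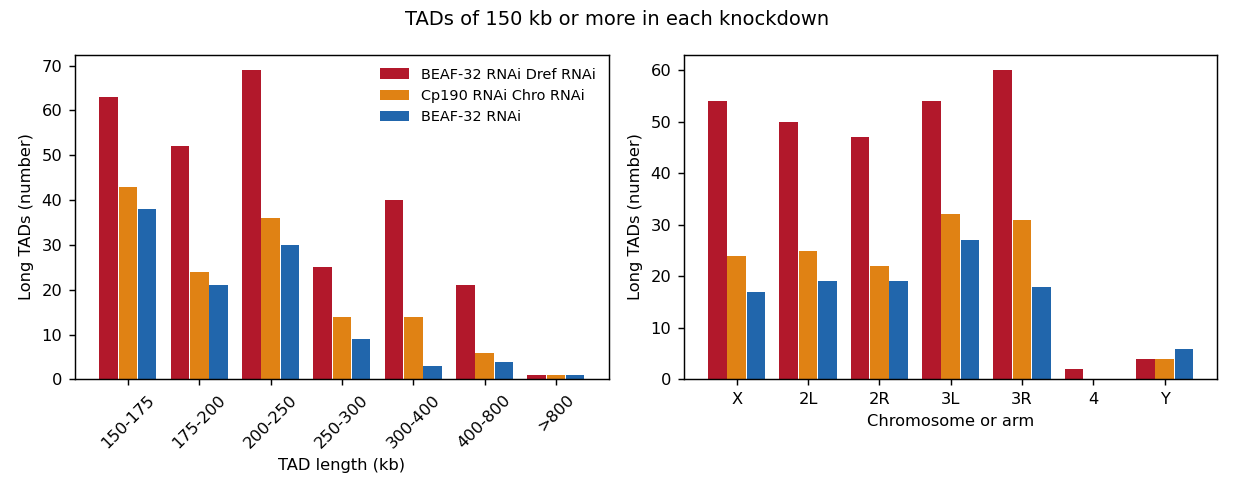
Number of long TADs by length (left, kb) and by chromosome or arm (right) in 1 merged TAD list each of BEAF-32 RNAi Dref RNAi cells, Cp190 RNAi Chro RNAi cells and BEAF-32 RNAi cells. BEAF-32 RNAi Dref RNAi has the highest bar in every length class but the last and on every chromosome but the Y, where it has 4 members, as Cp190 RNAi Chro RNAi has, and BEAF-32 RNAi has 6.

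Every large arm held long TADs in all 3 lists. In BEAF-32 RNAi Dref RNAi cells X had 54 long TADs over 58.2% of its tiled length, 2L 50 over 52.2%, 2R 47 over 46.9%, 3L 54 over 45.9% and 3R 60 over 46.4%. In Cp190 RNAi Chro RNAi cells the share of length ran between 21.4% on 2R and 24.5% on 3L. In BEAF-32 RNAi cells 3R had the lowest share of the 5 large arms, 10.2% with 18 long TADs, and 2L the highest, 18.8% with 19. The small chromosome 4 had 2 long TADs in BEAF-32 RNAi Dref RNAi cells and none in the other lists. The Y, which is mostly repeats and holds few genes, was covered by long TADs over 96.3%, 74.6% and 92.2% of its tiled length.

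Long TADs of the 3 lists fell into 270 separate loci when overlapping members were joined. All 3 lists had a long TAD in 64 of them. BEAF-32 RNAi Dref RNAi cells shared 43 with Cp190 RNAi Chro RNAi cells only and 18 with BEAF-32 RNAi cells only, and 5 were long in the last 2 lists only. Another 126 loci were long in BEAF-32 RNAi Dref RNAi cells alone (46.7%), and 7 in each of the other lists alone. Of the long TAD length of Cp190 RNAi Chro RNAi cells, 78.4% lay in long TADs of BEAF-32 RNAi Dref RNAi cells, and so did 79.7% of that of BEAF-32 RNAi cells. The other way round, 37.1% and 27.4% of the BEAF-32 RNAi Dref RNAi length lay in long TADs of Cp190 RNAi Chro RNAi cells and of BEAF-32 RNAi cells.

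The loci that only BEAF-32 RNAi Dref RNAi cells made long were richer in genes than those long in all lists. They held 14.1 genes per 100 kb over 25.9 Mb, and 53.9% of their protein-coding genes reached 1 RPKM in WT. The loci long in all 3 lists held 9.81 genes per 100 kb over 28.5 Mb, and 41.3% of their protein-coding genes reached 1 RPKM in WT. Loci shared with Cp190 RNAi Chro RNAi cells only lay between, with 11 genes per 100 kb and 49.2%. These loci were sorted by the measured TADs, so the values are a description.

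Most long TADs of BEAF-32 RNAi Dref RNAi cells were cut by borders of the other knockdowns. Borders within 2 kb of each other were counted as matched, and a border more than 2 kb from both ends as an inner border. Of the 271 members 250 (92.3%, exact binomial 95% interval 88.4 to 95.1%) had at least 1 inner border in Cp190 RNAi Chro RNAi cells, and 258 (95.2%, 91.9 to 97.4%) had 1 in BEAF-32 RNAi cells. In all 243 were cut in both lists and 6 in neither. The intervals cover counting over TADs only and not differences between Hi-C libraries.

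The cut pieces were often many. At least 3 inner borders lay in 108 members (39.9%) by the Cp190 RNAi Chro RNAi list and in 164 (60.5%) by the BEAF-32 RNAi list, and the largest remaining piece held a median of 57.4% and 50.3% of the member. In total 650 borders of Cp190 RNAi Chro RNAi cells and 881 of BEAF-32 RNAi cells lay inside. Of the 650, 403 (62%) had a BEAF-32 RNAi inner border within 2 kb. With any BEAF-32 RNAi border counted, 62.8% of the 650 were matched, against 73.2% of the 1513 Cp190 RNAi Chro RNAi borders elsewhere. Of the 881 borders of BEAF-32 RNAi cells 46.1% had one of Cp190 RNAi Chro RNAi cells within 2 kb, against 66.2% of their 1676 other borders.

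Inner borders were about as dense in long TADs as in shorter ones. They lay at 9.51 per Mb in long TADs of BEAF-32 RNAi Dref RNAi cells, against 9.82 per Mb in their other TADs, by the Cp190 RNAi Chro RNAi list, and at 12.9 against 12.4 per Mb by the BEAF-32 RNAi list. The ends of the members were matched in 57.7% and 60.7% of cases by the 2 lists, against 60.2% and 58.4% of the ends of other TADs.

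Long TADs of the other 2 knockdowns were cut less often by BEAF-32 RNAi Dref RNAi borders, which are fewer. Of the 138 members of Cp190 RNAi Chro RNAi cells 72 (52.2%, 43.5 to 60.7%) had an inner border in BEAF-32 RNAi Dref RNAi cells and 111 (80.4%, 72.8 to 86.7%) in BEAF-32 RNAi cells. Of the 106 members of BEAF-32 RNAi cells 46 (43.4%, 33.8 to 53.4%) had one in BEAF-32 RNAi Dref RNAi cells and 68 (64.2%, 54.3 to 73.2%) in Cp190 RNAi Chro RNAi cells. Members with no border of BEAF-32 RNAi Dref RNAi cells inside numbered 66 of 138 and 60 of 106. When strong borders alone were counted, long TADs of BEAF-32 RNAi Dref RNAi cells with an inner border were 32.8% by the Cp190 RNAi Chro RNAi list and 50.2% by the BEAF-32 RNAi list.

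**Figure D2:**
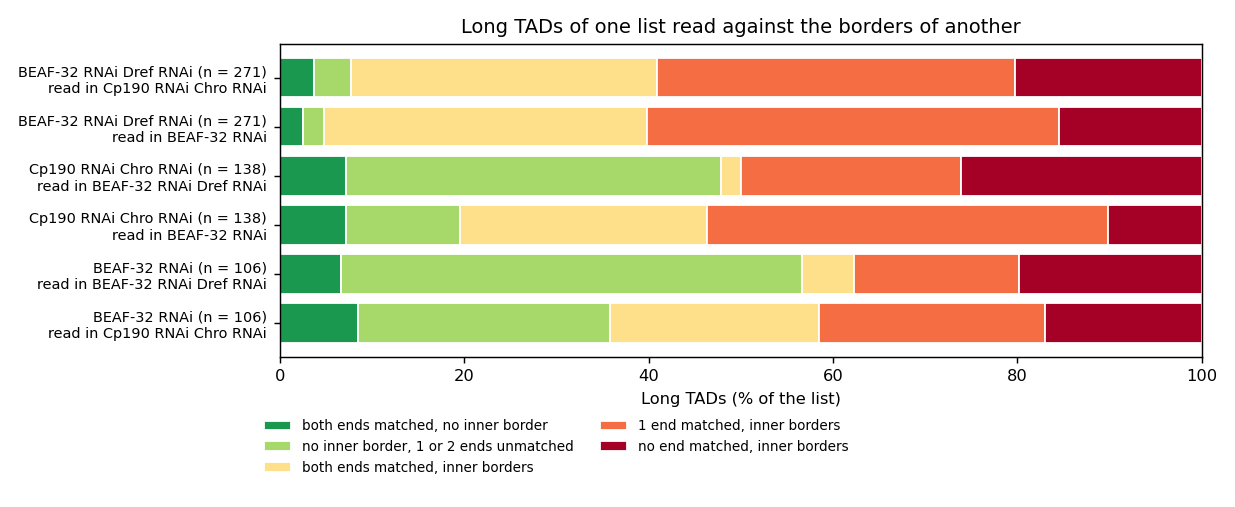
Each bar shows the long TADs of one list, as percent of its members, by how the borders of another list match their ends and cut them. Members with inner borders fill 92.3% and 95.2% of the 2 bars of BEAF-32 RNAi Dref RNAi, and 43.4 to 80.4% of the other 4.

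The share of expressed genes was higher in the members of BEAF-32 RNAi Dref RNAi cells that were cut more. Members without an inner border in Cp190 RNAi Chro RNAi cells (21) held 6.53 genes per 100 kb, and 29.4% of their protein-coding genes reached 1 RPKM. Members with 1 or 2 inner borders (142) held 11.3 genes per 100 kb with 46.9% expressed, and those with 3 or more (108) held 14.1 genes per 100 kb with 54.9% expressed. Their median lengths were 197, 198 and 242 kb, and longer members have more room for borders. By the BEAF-32 RNAi list the expressed shares were 23%, 48.5% and 53%, while gene density gave no order, with 13.1, 9.38 and 13.8 genes per 100 kb. Gene density ran the other way in Cp190 RNAi Chro RNAi cells cut by the BEAF-32 RNAi Dref RNAi list, with 11.4 genes per 100 kb in 66 members with no inner border and 1.76 in the 14 members with 3 or more.

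Single long TADs show these patterns. The longest member of BEAF-32 RNAi Dref RNAi cells off the Y, chr3R:24663159-25436618 (773.5 kb), held 152 genes, of which 78 of 147 protein-coding genes reached 1 RPKM. It was cut by 10 borders of Cp190 RNAi Chro RNAi cells and 14 of BEAF-32 RNAi cells, and its largest pieces were 187 and 114 kb. Among its genes are *asp*, which organizes spindle poles, *bam*, a switch of germline differentiation, and *CycB3*, a mitotic cyclin.

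The next, chr3R:11994887-12627752 (632.9 kb), kept both ends in both other lists and was cut 6 times in each. It held 106 genes, among them a run of glutathione S-transferases of the GstD group and *Hsp70Ba*, *Hsp70Bb*, *Hsp70Bbb* and *Hsp70Bc*, copies of the inducible heat shock gene whose reads cannot be told apart with certainty. On X the TAD chrX:16332608-16752236 (419.6 kb, 66 genes) also kept both ends and was cut by 8 borders of Cp190 RNAi Chro RNAi cells and 10 of BEAF-32 RNAi cells. At chr2L:9967488-10477025 (509.5 kb) 83 of 112 protein-coding genes reached 1 RPKM, and 6 and 9 borders cut it. Cuts also occurred where genes were few, as in chr3R:3758759-4135329 (376.6 kb), with 3 genes, 3 borders of Cp190 RNAi Chro RNAi cells and 9 of BEAF-32 RNAi cells.

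**Figure D3:**
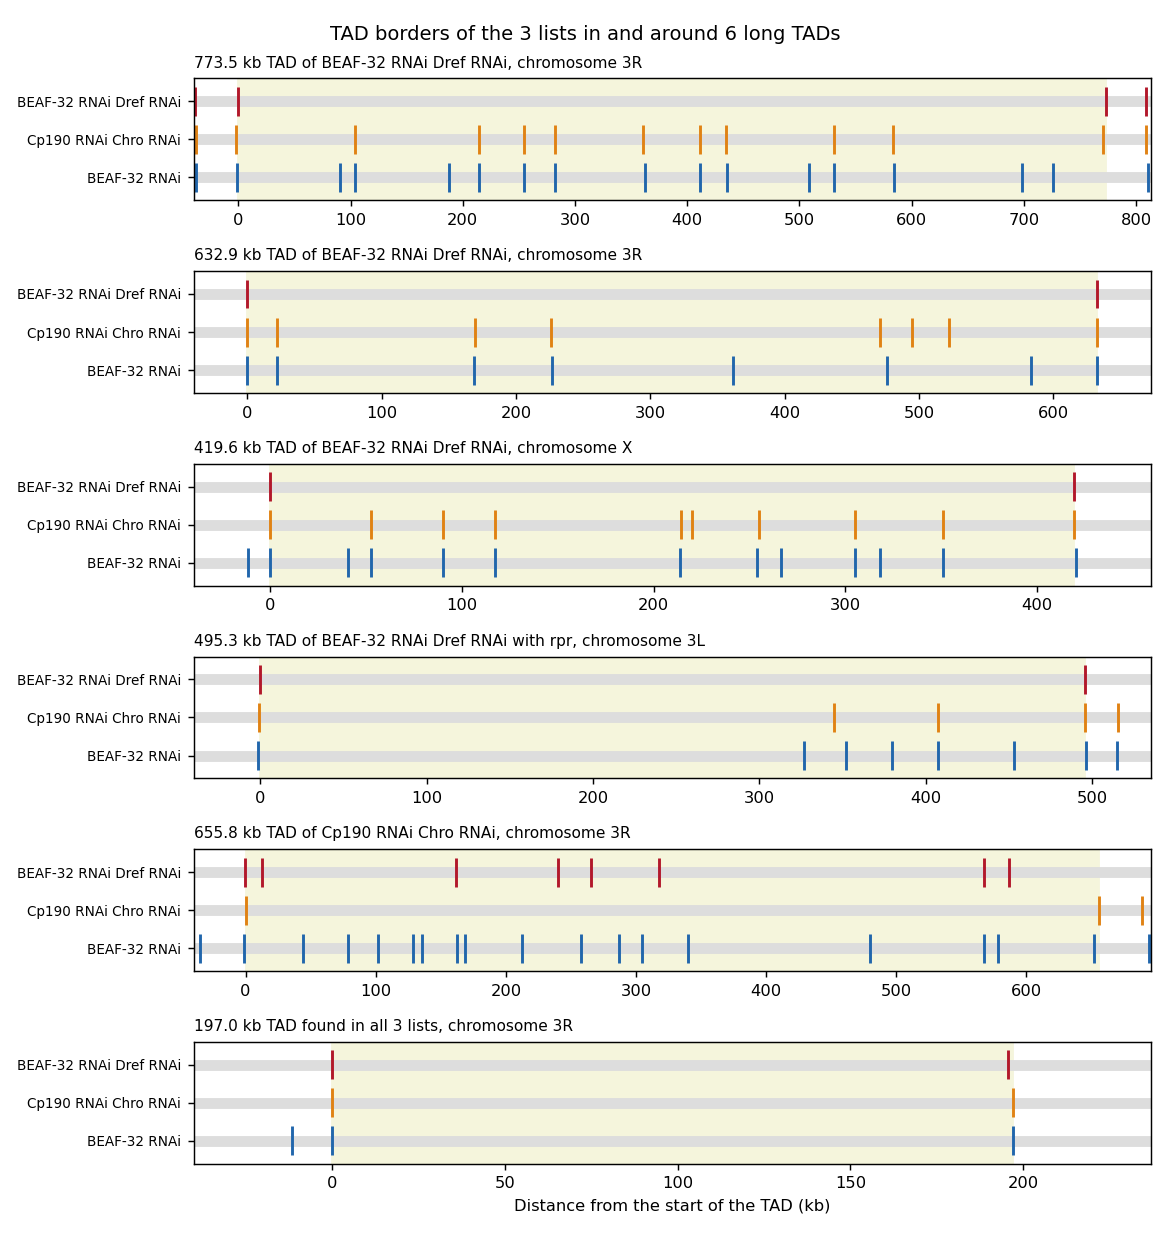
TAD borders of the 3 lists (vertical bars) in and around 6 long TADs (shaded), against the distance from the TAD start in kb. In the first panel 10 borders of Cp190 RNAi Chro RNAi and 14 of BEAF-32 RNAi cut the 773.5 kb TAD of BEAF-32 RNAi Dref RNAi, in the fifth 7 of BEAF-32 RNAi Dref RNAi and 16 of BEAF-32 RNAi cut a gene-free TAD of Cp190 RNAi Chro RNAi, and in the last no list places a border inside the TAD.

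The longest members of the other knockdowns held few or no expressed genes. In Cp190 RNAi Chro RNAi cells chr3R:593158-1248978 (655.8 kb), near the centromere, held no gene start and was cut by 7 borders of BEAF-32 RNAi Dref RNAi cells and 16 of BEAF-32 RNAi cells. Likewise chrX:21637502-22126529 (489 kb) held none, and 28% of its bases were annotated as transposons. In BEAF-32 RNAi cells chr2L:15771180-16221660 (450.5 kb) held 52 genes, none of its 33 protein-coding genes reached 1 RPKM, and no border of BEAF-32 RNAi Dref RNAi cells lay inside it. That TAD holds *beat-Ia*, *beat-Ib* and *beat-Ic*, whose immunoglobulin-domain proteins act in motor axon guidance. Members with no gene start numbered 15, 14 and 8 in the 3 lists.

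There were 3 TADs that were long, with ends matched within 2 kb and no inner border, in all 3 lists. The TAD on 3R, 195.5 kb in BEAF-32 RNAi Dref RNAi cells and 197 kb in both other knockdowns (chr3R:28348493-28545447), holds *Ppn*, a large extracellular matrix protein, and *beat-VI*. *Ppn* was at 56.7 to 61.8 RPKM in BEAF-32 RNAi Dref RNAi cells, 80.2 to 89.6 in Cp190 RNAi Chro RNAi cells and 5.42 to 167 in BEAF-32 RNAi cells, against 151 to 153 RPKM in WT, so the double knockdowns lay below WT while the replicates of BEAF-32 RNAi ranged across it. *beat-VI* had under 10 counts over the 12 libraries together and was not tested.

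The second, of 155.7 kb in BEAF-32 RNAi Dref RNAi cells and 152.7 kb in both other knockdowns (chr3L:19140355-19293090), holds *fz2*, a Wingless receptor, *Max*, the partner of Myc, and *rept*, a helicase of chromatin remodelling complexes. *rept* was at 58.5 to 61 RPKM in BEAF-32 RNAi Dref RNAi cells, 64.4 to 70.6 in Cp190 RNAi Chro RNAi cells and 53.4 to 70.6 in BEAF-32 RNAi cells, against 75.9 to 78.3 RPKM in WT. *Max* overlapped WT in every knockdown, with 31 to 32.3, 28.7 to 31.3 and 27.2 to 49.3 RPKM, against 29.1 to 32.1 RPKM in WT.

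The third lies on X and was 150.6, 151.4 and 150.8 kb long in the 3 lists (chrX:17305854-17456649 in BEAF-32 RNAi cells). It holds the BarH homeobox genes *B-H1* and *B-H2*, each with under 10 counts over the 12 libraries together. In every knockdown 2 of its 7 protein-coding genes reached 1 RPKM. These were *CG8611*, at 7.94 to 16.4 RPKM over the knockdown libraries, and *ENGase*, at 1.97 to 3.8 RPKM. Among the TADs alike in all 3 lists, the one on 3L thus held more expressed genes than the one on X.

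Long TADs of Cp190 RNAi Chro RNAi cells and of BEAF-32 RNAi cells were poor in active genes, while those of BEAF-32 RNAi Dref RNAi cells were closer to the remaining TADs. Gene density was 8.54 per 100 kb in long TADs against 13.2 in other TADs of Cp190 RNAi Chro RNAi cells, and 8.86 against 12.8 in BEAF-32 RNAi cells. In BEAF-32 RNAi Dref RNAi cells it was 12.3 against 12. Of protein-coding genes 36.9% in long TADs reached 1 RPKM, against 56.5% in other TADs, in Cp190 RNAi Chro RNAi cells, and 30.9% against 55% did in BEAF-32 RNAi cells. In BEAF-32 RNAi Dref RNAi cells the shares were 50.8% against 56.5%.

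The same difference was there in WT cells. Of the protein-coding genes in long TADs 48.5% for the BEAF-32 RNAi Dref RNAi list, 35.2% for the Cp190 RNAi Chro RNAi list and 30.4% for the BEAF-32 RNAi list reached 1 RPKM in WT. Median expression of protein-coding genes in the knockdown itself was 1.58 RPKM in long against 4.62 RPKM in other TADs for BEAF-32 RNAi Dref RNAi, 0.0363 against 4.99 RPKM for Cp190 RNAi Chro RNAi and 0 against 4.74 RPKM for BEAF-32 RNAi. Genes with under 10 counts over all libraries entered these medians as 0.

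Separation score and strong borders differed little. The score, which the authors' caller gives to the border at the start of a TAD and which is lower at sharper borders, had a median of -0.0354 for long against 0.00195 for other TADs in BEAF-32 RNAi Dref RNAi cells. It was -0.111 against -0.0551 in Cp190 RNAi Chro RNAi cells and -0.0874 against -0.0561 in BEAF-32 RNAi cells. Strong borders made up 29.5% of the ends of long against 31.2% of the ends of other TADs in BEAF-32 RNAi Dref RNAi cells, 41.3% against 40% in Cp190 RNAi Chro RNAi cells and 37.3% against 44.6% in BEAF-32 RNAi cells.

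No long TAD had a loop that joined its ends. Loops were called by the authors in bins of 2 kb, and an end-to-end loop has both anchors within 5 kb of the TAD ends. Such loops were found in 0 of 271 long and 18 of 1139 other TADs of BEAF-32 RNAi Dref RNAi cells, 0 of 138 long and 93 other TADs of Cp190 RNAi Chro RNAi cells, and 0 of 106 long and 70 other TADs of BEAF-32 RNAi cells. A count of 0 allows shares of up to 1.11%, 2.17% and 2.83% of long TADs, for counting error only. The loops had a median span of 26, 28 and 26 kb, and 41 of 787, 157 of 2154 and 65 of 1179 spanned 150 kb or more. Loops inside long TADs lay at 4.23 per Mb, against 5.01 in other TADs, in BEAF-32 RNAi Dref RNAi cells, 9.03 against 11.3 in Cp190 RNAi Chro RNAi cells and 4.55 against 6.9 in BEAF-32 RNAi cells.

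Summed transposon content differed by less than 1 percentage point between long and other TADs, while the median long TAD held more than the median other TAD. Annotated transposons held 5.06% of the summed bases of long against 5.62% of other TADs in BEAF-32 RNAi Dref RNAi cells, 5.87% against 5.16% in Cp190 RNAi Chro RNAi cells and 5.91% against 5.22% in BEAF-32 RNAi cells. The median over TADs was 2.85% for long against 0.294% for other TADs, 2.43% against 0.0609%, and 2.94% against 0% in the same order. A longer TAD has more room to hold any transposon, and the part of length in these medians was not tested. Bases masked as repeats of any kind summed to 21.1% against 20.1%, 25.8% against 19.1%, and 26.2% against 19.5%. Members with 20% or more of their bases in transposons numbered 11, 9 and 7. GATC sites, on which the contact matrices are built, lay at a median of 2.91 per kb in long against 2.8 in other TADs in BEAF-32 RNAi Dref RNAi cells, 2.85 against 2.9 in Cp190 RNAi Chro RNAi cells and 2.74 against 3.01 in BEAF-32 RNAi cells.

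Borders inside long TADs of BEAF-32 RNAi Dref RNAi cells stood at expressed genes about as often as other borders of their own lists. A gene at 1 RPKM or more started within 2 kb of 55.8% of the Cp190 RNAi Chro RNAi borders inside and of 58.2% of the BEAF-32 RNAi borders inside, against 53.5% and 57.1% of the borders of these lists elsewhere. For the 403 inner borders that both lists had, the share was 76.2% (307 borders), against 64.9% of the 1108 Cp190 RNAi Chro RNAi borders elsewhere that BEAF-32 RNAi cells shared. It was 39.1% at the 496 ends of the long TADs, 37.8% at the other 921 borders of BEAF-32 RNAi Dref RNAi cells, and 15.1% over 33130 windows of the same 4 kb length along X, 2L, 2R, 3L and 3R. Pairs of divergent expressed genes with starts within 1 kb lay at 28.3% of the shared inner borders, 12.1% of the ends and 4.55% of all windows.

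The Dref element was counted in the same windows. TATCGATA, which reads the same on both strands and contains CGATA, occurred within 2 kb of 22.3% of the Cp190 RNAi Chro RNAi borders inside and of 23.2% of the BEAF-32 RNAi borders inside, against 20.9% and 20.8% of the borders of these lists elsewhere. It occurred at 27.8% of the shared inner borders (112 of 403), against 24.3% of the shared borders elsewhere. At the ends of the long TADs the share was 15.5%, at the other borders of BEAF-32 RNAi Dref RNAi cells 18.1%, and in all windows 10.2% (3374 of 33130). The motif CGATA itself, on both strands, averaged 6.68 matches per window at shared inner borders, 6.19 at shared borders elsewhere, 5.57 at the ends and 5.23 over all windows. These windows hold more gene starts than others, and the part of promoters in the share of elements was not tested.

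Borders of BEAF-32 RNAi Dref RNAi cells inside long TADs of the other knockdowns had few gene starts. An expressed gene started within 2 kb of 8.13% of the 123 such borders in Cp190 RNAi Chro RNAi cells and of 9.88% of the 81 in BEAF-32 RNAi cells, against 14.9% and 14.7% of all windows. These long TADs held only 2.52 and 2.07 expressed protein-coding genes per 100 kb, against 6.3 and 5.96 in other TADs of the same lists. Windows inside the long TADs alone were not counted, so the borders cannot be set apart from their surroundings. The ends of these long TADs had expressed starts in 48.5% and 46.5% of cases, against 55.1% and 57.8% at the other borders of their lists.

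**Figure D4:**
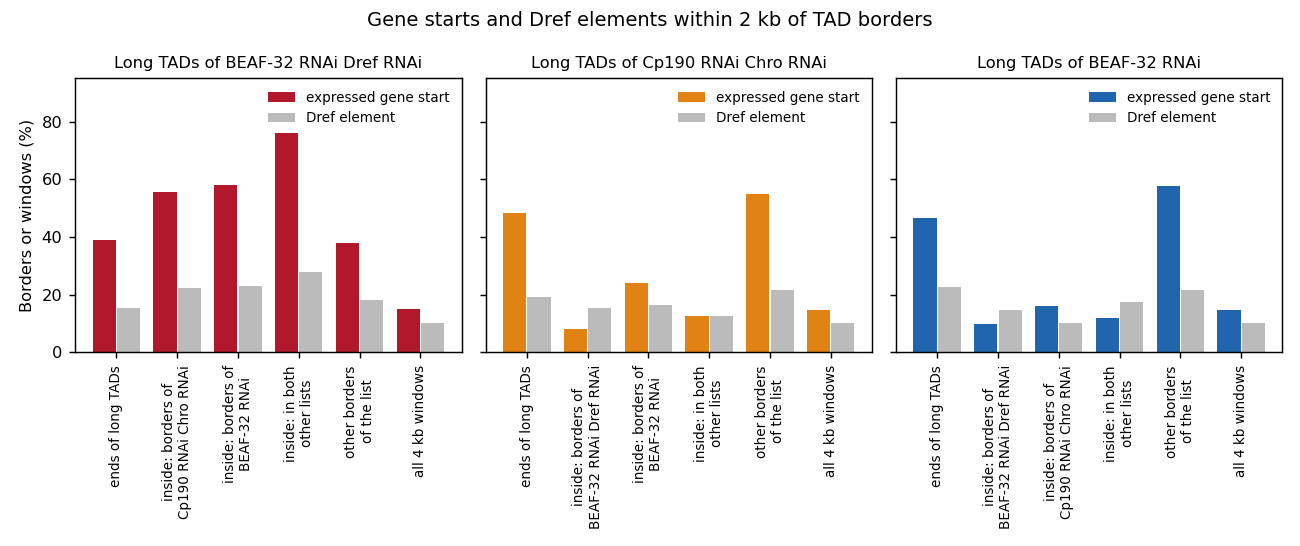
Percent of borders with an expressed gene start (coloured, 1 RPKM or more in the knockdown named) or a Dref element (grey) within 2 kb, for the long TADs of each list. In the left panel shared inner borders reach 76.2% and 27.8%, ends of long TADs 39.1% and 15.5%, and all windows 15.1% and 10.2%.

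The genes at the shared inner borders were read next. Of the 670 genes that start within 2 kb of such a border in long TADs of BEAF-32 RNAi Dref RNAi cells, 82.8% of the protein-coding ones reached 1 RPKM, with a median of 24.2 RPKM. Of the 7126 genes over 2 kb from every inner border of the other lists 45% did, with a median of 0.475 RPKM. Against WT, 120 of 593 tested genes at the borders were higher in BEAF-32 RNAi Dref RNAi cells and 144 lower (20.2% and 24.3%), and 891 and 726 of 3944 tested genes away from them (22.6% and 18.4%). Over all 10545 genes tested by edgeR's quasi-likelihood test at a Benjamini-Hochberg adjusted p under 0.05, 21.5% were higher and 20.3% lower in that comparison.

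Genes in long TADs changed about as often as genes elsewhere. Of 5047 tested genes in long TADs of BEAF-32 RNAi Dref RNAi cells 1126 (22.3%) were higher and 984 (19.5%) lower than in WT, against 21.5% and 20.3% of all genes tested. In long TADs of Cp190 RNAi Chro RNAi cells 244 (19.7%) of 1236 were higher and 192 (15.5%) lower, against 17.9% and 15.6% of all genes. In long TADs of BEAF-32 RNAi cells 130 (17.2%) of 754 were higher and 111 (14.7%) lower, against 18.5% and 15.7%. Median log2 fold changes in long TADs were 0.05, 0.04 and 0.10, against 0.03, 0.02 and 0.07 over all genes. The 3 comparisons share the WT libraries. No source says that replicates came from separate cultures, and each p-value then reflects only how far the libraries spread.

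Called genes with large changes were mostly higher, in long TADs as over all genes, but the filter of 10 counts in total favours rises. Genes with few counts in WT can pass it through the knockdown libraries and can then hardly fall. No direction is therefore read from these numbers. Called genes with a log2 fold change of 2 or more in size numbered 391 higher and 49 lower in long TADs of BEAF-32 RNAi Dref RNAi cells, 96 and 18 in those of Cp190 RNAi Chro RNAi cells, and 55 and 10 in those of BEAF-32 RNAi cells. Among all genes tested the numbers were 737 and 114, 601 and 89, and 760 and 101. Both directions together made up 8.72%, 9.22% and 8.62% of tested genes in long TADs, against 8.07%, 6.54% and 8.17% of all genes. Of the genes in long TADs 59.8%, 44.4% and 36.1% had enough counts to be tested, against 67.2 to 67.3% in other TADs.

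Between knockdowns few genes in long TADs were called, and the number depended on single libraries. Set against BEAF-32 RNAi cells, BEAF-32 RNAi Dref RNAi cells showed 161 genes with higher (3.19%) and 123 with lower expression (2.44%), against 3.03% and 2.7% of all genes tested. Without replicate 3 of BEAF-32 RNAi the calls were 1058 higher and 1071 lower, 42.8% of tested genes in long TADs and 42.9% of all genes. Cp190 RNAi Chro RNAi cells had 46 higher (3.72%) and 32 lower (2.59%) than BEAF-32 RNAi cells, against 3.65% and 3.25% of all genes, and 449 calls in place of 78 without that replicate. Leaving out any other library of the 2 groups gave 108 to 169 calls in place of 284 in BEAF-32 RNAi Dref RNAi cells, and leaving out a Cp190 RNAi Chro RNAi library gave 31 to 41 in place of 78. With only the 2 groups compared in the fit the calls were 2 and 0, and an unadjusted p under 0.05 was reached by 151 of 1170 genes where the count was 0.

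No gene was called between the 2 double knockdowns. In BEAF-32 RNAi Dref RNAi cells, set against Cp190 RNAi Chro RNAi cells, edgeR called 0 higher and 0 lower of 5047 genes in long TADs, against 0% and 0% of all genes. At an unadjusted p under 0.05 there were 199 (405 over all genes), and DESeq2 called 2 (6 over all genes). Without BEAF-32 RNAi replicate 3 edgeR called 629 genes in long TADs (12.7%) and 1331 over all genes (12.8%), and with the 2 groups alone 483 in long TADs.

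Leaving out that replicate also moved the comparisons with WT. In long TADs of Cp190 RNAi Chro RNAi cells 679 genes were called against WT without it, and 290 without WT replicate 3, in place of 436. In those of BEAF-32 RNAi Dref RNAi cells 3059 were called without it in place of 2110, 61.5% against 61.1% of all genes.

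Named genes with the largest changes were chosen by size among called genes of long TADs whose replicates did not overlap between groups. In BEAF-32 RNAi Dref RNAi cells *Dgat2*, an enzyme of triglyceride synthesis (chr2R:7712578-7714182), had 8.69, 4.33 and 7 CPM against 0 in all 3 WT libraries, at least 24.6-fold higher (edgeR adjusted p = 4.2e-04). That bound, like those below, sets WT at 3 counts per library. *dao* was at least 11.5-fold and *ninaC*, a myosin kinase of photoreceptors, at least 6.98-fold higher, both at 0 in WT (edgeR adjusted p = 0.00458 and 0.00239). *wat*, a fatty acyl-CoA reductase, had 10.7, 14 and 13.8 CPM against 0.0962, 0 and 0.0835 CPM in WT.

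*mira*, an adaptor of asymmetric neuroblast division (chr3R:19931799-19935120, in a TAD of 217.5 kb), was low in all knockdowns. It had 2.63, 2.1 and 0.999 CPM in BEAF-32 RNAi Dref RNAi cells, against 38.4, 38.1 and 35.7 CPM in WT, and fell by 4.28 ± 0.46 (SE) on the log2 scale (edgeR adjusted p = 4.2e-05). The groups did not overlap, which the choice of these genes required. The other knockdowns had 5.14, 1.7 and 1.97 CPM in Cp190 RNAi Chro RNAi cells and 1.8, 4.84 and 2.13 CPM in BEAF-32 RNAi cells, against the same WT values.

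*CG42249* and *dao* were at 0 in WT and at least 4.45-fold and 3.85-fold higher in Cp190 RNAi Chro RNAi cells (edgeR adjusted p = 0.00937 and 0.0248). Neither could have been called lower, and the call of *dao* was ended by 5 of 12 other settings. *CG15117* had 12.8, 8.42 and 12.1 CPM against 70.8, 75.2 and 72.9 CPM in WT, a fall by 2.71 ± 0.16 (SE) on the log2 scale (edgeR adjusted p = 8.8e-07). *Ork1*, a potassium leak channel, had 0.61, 0.702 and 0.984 CPM against 5.2, 6.33 and 4.68 CPM in WT. In BEAF-32 RNAi cells, where *Ork1* also lay in a long TAD, it had 1.8, 0.484 and 0.711 CPM.

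In BEAF-32 RNAi cells 3 neighbouring genes of 1 long TAD (chr2R:10253170-10431140, 178 kb) had high values. *Prx6c*, a peroxiredoxin, had 130, 117 and 61.7 CPM against 8.47, 5.5 and 4.68 CPM in WT (log2 fold change 4.06 ± 0.29 SE, edgeR adjusted p = 2.3e-06). *CG11825* had 38.1, 35 and 36.7 CPM against 1.73, 2.48 and 2 CPM, and *Prx6b* 24.4, 17.1 and 15.4 CPM against 1.44, 0.825 and 0.668 CPM. All 3 were higher in every BEAF-32 RNAi library than in any WT library, which the choice of these genes required. They lie side by side at chr2R:10418718-10425471, where reads of the related *Prx6* genes may not be told apart.

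*axo*, an extracellular protein of axons (chr3L:4629604-4687317), fell to 6.15, 5.91 and 7.96 CPM in BEAF-32 RNAi cells, against 68.9, 64.8 and 67.1 CPM in WT (log2 fold change -3.34 ± 0.13 SE, edgeR adjusted p = 6.5e-08). *DAT*, the dopamine transporter, had 2.86, 3.78 and 1.56 CPM against 19.6, 14.9 and 17 CPM. *ine*, of the same transporter family, had 2.12, 3.29 and 4.41 CPM against 20.5, 25 and 26.6 CPM.

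*twz* set the double knockdowns apart from BEAF-32 RNAi. It had 78.8, 74.8 and 68.1 CPM in BEAF-32 RNAi Dref RNAi cells, against 8.49, 8.14 and 8.53 CPM in BEAF-32 RNAi cells (log2 fold change 3.14 ± 0.11 SE, edgeR adjusted p = 6.2e-08), and the call held with every library of these groups left out in turn. Cp190 RNAi Chro RNAi cells had 80, 81.1 and 82.9 CPM and WT 20.6, 22.8 and 17.3 CPM. *fipi*, an immunoglobulin superfamily gene of neurons, had 5.15, 5.57 and 6.11 CPM against 0.212, 0.0969 and 0.427 CPM. *Hsp70Bc*, in the 632.9 kb TAD described above, had 3.13, 3.96 and 4.44 CPM against 17.8, 24.9 and 5.83 CPM in BEAF-32 RNAi cells, whose replicates spread widely, and 7 of 11 other settings ended its call.

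*Delta*, the Notch ligand, had 10.4, 8.12 and 12.1 CPM in Cp190 RNAi Chro RNAi cells, against 22.9, 22.8 and 23.7 CPM in BEAF-32 RNAi cells (log2 fold change -1.18 ± 0.16 SE, edgeR adjusted p = 0.00123). *sev*, a receptor kinase of the eye, had 65.2, 69.1 and 70 CPM against 21, 22.6 and 41.4 CPM. *Irk2*, an inward rectifier potassium channel, had 3.66, 5.21 and 3.12 CPM against 0.106, 0.388 and 1.28 CPM. *smal*, a discoidin domain receptor, was lower than in BEAF-32 RNAi cells in both double knockdowns, with 1.82, 2.35 and 3 CPM in BEAF-32 RNAi Dref RNAi cells and 3.23, 3.71 and 3.69 CPM in Cp190 RNAi Chro RNAi cells, against 10.9, 10.8 and 7.11 CPM.

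**Figure D5:**
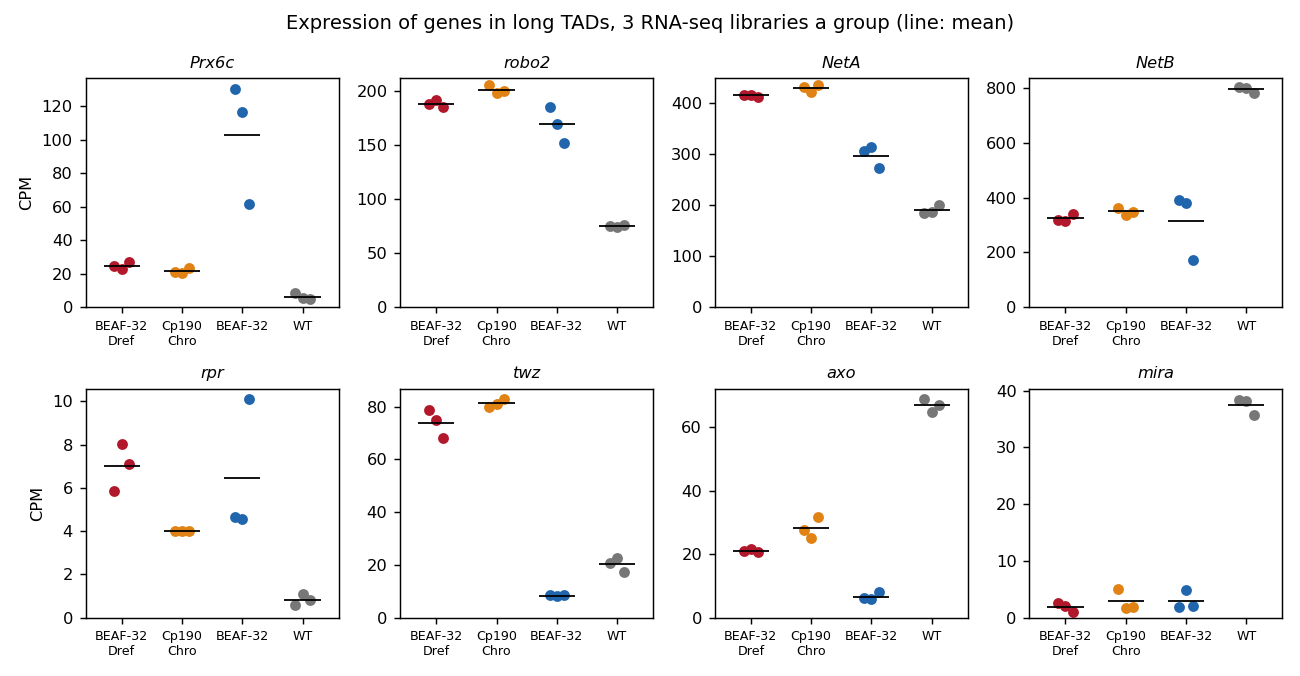
CPM of 8 genes in 3 RNA-seq libraries each of BEAF-32 RNAi Dref RNAi, Cp190 RNAi Chro RNAi, BEAF-32 RNAi and WT, left to right (points) with the group mean (line). *twz* is near 80 CPM in the 2 double knockdowns and under 10 CPM in BEAF-32 RNAi, and *mira* lies at 35.7 CPM or more in WT and at 5.14 CPM or less in every knockdown library.

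Gene groups differed in the share that lay in long TADs. Of all genes with a position 51% lay in long TADs of BEAF-32 RNAi Dref RNAi cells, 16.7% in those of Cp190 RNAi Chro RNAi cells and 12.6% in those of BEAF-32 RNAi cells. Of 100 patterning and lineage genes known as Polycomb targets 50, 14 and 16 did, and of 85 cytoplasmic ribosomal protein genes 36, 9 and 7. Pericentric heterochromatin genes stood higher in Cp190 RNAi Chro RNAi cells, where 12 of 28 lay in long TADs (42.9%), with 11 and 4 in the others. Cuticle genes were in 60, 31 and 7 of 118 cases in long TADs (50.8%, 26.3% and 5.93%). Chemoreceptor genes were in 115, 38 and 47 of 230 (50%, 16.5% and 20.4%). Vacuolar ATPase genes were at 36.4%, 27.3% and 15.2% of 33, and proteasome genes at 41.7%, 8.33% and 6.25% of 48. Mitochondrial ribosomal protein genes were at 38.4%, 11% and 15.1% of 73, and Mediator genes at 48%, 12% and 4% of 25. Neuronal adhesion, channel and synapse genes were at 44.8%, 14.9% and 16.4% of 67. Of the 8 Hox genes 2, 1 and 0 lay in long TADs, and none of these had enough counts to be tested.

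Of the patterning genes 25 of 50 in long TADs of BEAF-32 RNAi Dref RNAi cells could be tested, and 9 were higher and 1 lower than in WT (21.5% and 20.3% of all genes). Of these 25, 15 held under 10 counts in the WT libraries together, 4 of the 9 higher ones among them. Such genes passed the filter only through the knockdown libraries and could hardly be called lower, so the count says nothing of a direction. *hth*, a cofactor of Hox proteins, had 459, 455 and 473 CPM against 302, 299 and 302 CPM in WT (log2 fold change 0.62 ± 0.069 SE, edgeR adjusted p = 5.0e-05). *caup*, of the Iroquois complex, was at 0 in WT and at least 4.47-fold higher, at 2.02, 0.619 and 0.999 CPM. *ct*, a homeodomain factor, fell by 0.22 ± 0.066 (SE) on the log2 scale, to 268, 267 and 276 CPM against 308, 320 and 314 CPM.

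Among patterning genes in the other lists 2 of 6 tested were higher in Cp190 RNAi Chro RNAi cells (17.9% of all genes) and 4 of 7 in BEAF-32 RNAi cells (18.5%), and none was lower (15.6% and 15.7%). Of these, 3 of the 6 and 6 of the 7 held under 10 counts in WT. *slp1* and *slp2*, adjacent forkhead genes of segmentation, had 13.1, 13.7 and 14.4 CPM and 8.89, 8.62 and 7.79 CPM in Cp190 RNAi Chro RNAi cells, against 4.04, 3.85 and 4.68 CPM and 2.12, 1.47 and 2.42 CPM in WT. *mirr*, of the Iroquois complex, had 96.3, 92.6 and 11.8 CPM in BEAF-32 RNAi cells, against 15.7, 14 and 21.5 CPM in WT. Replicate 3 lay below WT, so the groups overlapped.

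Neuronal adhesion, channel and synapse genes moved both ways. Of 21 tested in long TADs of BEAF-32 RNAi Dref RNAi cells 9 were higher and 3 lower than in WT, against 21.5% and 20.3% of all genes, with 2 of the 9 under 10 counts in WT. *robo2*, a receptor for Slit (chr2L:1380086-1420453), had 188, 191 and 185 CPM against 74.7, 74.4 and 75.4 CPM in WT (log2 fold change 1.33 ± 0.078 SE, edgeR adjusted p = 6.5e-07). It also lay in a long TAD of BEAF-32 RNAi cells, with 185, 170 and 152 CPM.

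The 2 Netrin genes, which guide axons and share 1 long TAD of 360.3 kb on X, moved in opposite directions. *NetA* had 416, 417 and 414 CPM in BEAF-32 RNAi Dref RNAi cells against 185, 187 and 201 CPM in WT (log2 fold change 1.12 ± 0.072 SE, edgeR adjusted p = 1.2e-06). *NetB* had 319, 315 and 339 CPM against 803, 799 and 783 CPM (log2 fold change -1.29 ± 0.23 SE, edgeR adjusted p = 0.00111). *cac*, a voltage-gated calcium channel, had 40.3, 38.7 and 44.8 CPM against 100, 98.9 and 92.2 CPM. In Cp190 RNAi Chro RNAi cells 3 of 7 tested genes of the list were higher and 2 lower (17.9% and 15.6% of all genes), and in BEAF-32 RNAi cells 2 and 3 of 8 (18.5% and 15.7%).

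Most called genes of pericentric heterochromatin were lower. In long TADs of BEAF-32 RNAi Dref RNAi cells 0 of 11 tested genes were higher and 6 lower than in WT, against 21.5% and 20.3% of all genes. In those of Cp190 RNAi Chro RNAi cells 2 and 5 of 11 were, against 17.9% and 15.6%, and in those of BEAF-32 RNAi cells 0 and 3 of 4, against 18.5% and 15.7%. The median log2 fold changes of these few genes were -0.29, -0.30 and -0.68, against 0.03, 0.02 and 0.07 over all genes. *Nipped-A*, a large subunit of histone acetyltransferase complexes (chr2R:5177965-5251022), lay in a long TAD in all 3 lists. It had 201, 192 and 209 CPM in BEAF-32 RNAi Dref RNAi cells, 234, 215 and 215 CPM in Cp190 RNAi Chro RNAi cells and 265, 225 and 183 CPM in BEAF-32 RNAi cells, against 402, 380 and 365 CPM in WT, so no knockdown library overlapped WT. It fell by 0.93 ± 0.11, 0.79 ± 0.11 and 0.77 ± 0.11 (SE) on the log2 scale (edgeR adjusted p = 1.1e-04, 4.1e-04 and 4.7e-04).

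*MFS17*, a transporter gene in a TAD of 193.8, 419.1 and 256.9 kb in the 3 lists, had 37, 32.8 and 37.1 CPM, 33, 34.5 and 39.3 CPM, and 41.3, 36.8 and 53.5 CPM in the knockdowns in the order of the lists, against 65.7, 65.2 and 67.8 CPM in WT. *AGO3*, a piRNA-binding protein, went the other way in Cp190 RNAi Chro RNAi cells, with 11.8, 10.7 and 9.19 CPM against 1.44, 1.01 and 0.919 CPM in WT (log2 fold change 3.23 ± 0.58 SE, edgeR adjusted p = 0.00175).

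The housekeeping lists differed in their calls. Of 34 tested cytoplasmic ribosomal protein genes in long TADs of BEAF-32 RNAi Dref RNAi cells 0 were higher and 6 lower than in WT, against 21.5% and 20.3% of all genes, with a median log2 fold change of -0.03. Set against BEAF-32 RNAi cells 0 were higher and 8 lower, where 3.03% and 2.7% of all genes were, with a median of -0.24. In Cp190 RNAi Chro RNAi cells 0 and 4 of 9 were, where 3.65% and 3.25% of all genes were. Without BEAF-32 RNAi replicate 3 these counts were 3 and 16 of 34, where 21.4% and 21.5% of all genes were, and 0 and 7 of 9, where 20.1% and 17.8% were. *RpL3* had 1633, 1595 and 1617 CPM in BEAF-32 RNAi Dref RNAi cells, against 2098, 2154 and 2253 CPM in WT. Against WT, with the same all-gene shares of 21.5% and 20.3%, mitochondrial ribosomal protein genes gave 4 higher and 4 lower of 27, proteasome genes 1 and 1 of 15, and Mediator genes 0 and 3 of 11. *mRpL28*, of the large mitochondrial subunit, rose to 178, 180 and 175 CPM in BEAF-32 RNAi Dref RNAi cells, against 85.5, 82.2 and 84.8 CPM in WT (log2 fold change 1.08 ± 0.18 SE, edgeR adjusted p = 7.8e-04). Vacuolar ATPase genes gave 0 higher and 1 lower of 4, and cuticle genes 1 and 0 of 8.

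Chemoreceptor genes gave 7 higher and 2 lower of 31 in long TADs of BEAF-32 RNAi Dref RNAi cells (21.5% and 20.3% of all genes), 1 and 0 of 6 in those of Cp190 RNAi Chro RNAi cells (17.9% and 15.6%), and 1 and 0 of 6 in those of BEAF-32 RNAi cells (18.5% and 15.7%). Of these, 17, 3 and 5 held under 10 counts in WT. *Gr94a*, a gustatory receptor, lay in a long TAD in all 3 lists and was higher in each knockdown, with 56.3, 50.9 and 54.3 CPM, 38.4, 36.4 and 34.6 CPM, and 50.9, 52.7 and 140 CPM in the order of the lists, against 10.5, 7.79 and 9.77 CPM in WT. *Or46a*, an odorant receptor, was lower in BEAF-32 RNAi Dref RNAi cells, with 2.73, 3.47 and 2.67 CPM against 18.2, 18.4 and 20.6 CPM.

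One long TAD on 3L holds the cell death genes *hid*, *grim*, *rpr* and *skl*, whose proteins bind and block inhibitors of apoptosis, and was chosen after its values were seen. It measured 495.3 kb in BEAF-32 RNAi Dref RNAi cells (chr3L:18169322-18664624), 345.4 kb in Cp190 RNAi Chro RNAi cells and 328 kb in BEAF-32 RNAi cells, with the same start within 2 kb. The BEAF-32 RNAi Dref RNAi TAD kept both ends in the other lists, which cut it at 2 and 5 places. All 4 genes start in the part that is common to the 3 TADs.

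*rpr* had 5.86, 8.05 and 7.11 CPM in BEAF-32 RNAi Dref RNAi cells, 4.01, 4.01 and 4.02 CPM in Cp190 RNAi Chro RNAi cells and 4.67, 4.55 and 10.1 CPM in BEAF-32 RNAi cells, against 0.577, 1.1 and 0.835 CPM in WT. The log2 fold changes were 3.04, 2.24 and 2.90 (SE 0.37 each, edgeR adjusted p = 9.7e-05, 9.9e-04 and 1.6e-04), and every knockdown library lay above every WT library. *skl* was at 0 in WT and at least 1.62-fold, 1.38-fold and 3.42-fold higher, at low levels of 0.0896 to 0.643, 0.0725 to 0.505 and 0.421 to 1.13 RPKM. With no counts in WT it could not have been called lower. Its call against WT was ended by 5 of 12 other settings in Cp190 RNAi Chro RNAi cells and by 1 of 12 in BEAF-32 RNAi Dref RNAi cells. *hid* had 125, 128 and 132 CPM, 107, 101 and 100 CPM, and 83.8, 99.2 and 189 CPM, against 86.7, 87.2 and 94.4 CPM in WT, and did not pass the test (edgeR adjusted p = 0.0827, 0.518 and 0.127). *grim* had under 10 counts over the 12 libraries together and was not tested.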

How the data were processed

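Per the submitters' processing notes and the study's methods, Hi-C reads were aligned to dm6 with BWA, matrices were built on DpnII fragments and TADs were called with HiCExplorer, at 2 thresholds. The TAD separation score was used as deposited by the authors. Loops came from Juicer in 2 kb bins, deposited by the authors with the observed contact signal, of which only the loop positions are reported. RNA-seq reads were trimmed with Trimmomatic 0.39, aligned with TopHat2 2.1.2 and Bowtie2 2.3.4.1, deduplicated with Picard and counted with HTSeq into the deposited counts per gene. The study's code runs HTSeq with no strand option, under which HTSeq counts reads on the sense strand, and no source used here says whether the libraries kept strand, so a gene and an overlapping or antisense gene may not be told apart.

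TADs and genes were placed on the RefSeq dm6 annotation. Of 16727 genes 12499 matched by symbol, 4061 by synonym and 167 not. A gene belongs to the TAD that holds its start. RPKM used TMM-scaled CPM and exon length, and genes with under 10 counts in total were set to 0. Rows of HTSeq that are no genes (no feature 39.4 to 44.1%, not unique 16 to 29.5%, ambiguous 0.486 to 0.598%) were left out.

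Counts of 12 libraries were fitted with edgeR 4.0.16 (R 4.3.3, TMM, at least 10 counts in total) and its quasi-likelihood test, adjusted over 10545 genes. SE is the log2 fold change over the root of F. Scripts were tested on simulated data. Alternatives were DESeq2 1.42.0 (the study's tool), other scaling and filters, 2 groups only, a replicate block, other length limits, border tolerances and strong borders. Each library of the groups compared, and BEAF-32 RNAi replicate 3, was also left out in turn. Named genes were the 6 largest rises and falls per comparison among called genes of long TADs whose replicates did not overlap between groups and all held 10 counts or more in the higher group, the RNAi targets, and up to 4 members of smallest p per list and direction. Named TADs were the 5 longest and the 5 with the most inner borders per list, and those alike in all lists. The TADs, lists and rules were chosen with earlier results of these data known. Intervals and floors of 3 counts cover counting error only.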

Additional observations from a re-analysis of the deposited data

How the results depend on the processing

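Of 155 alternative values of 20 main results, 106 stayed within their limits. Libraries left out in turn were those of the 2 groups compared and BEAF-32 RNAi replicate 3. Genes called in long TADs, against WT, then ranged from 1597 to 3059 in BEAF-32 RNAi Dref RNAi (2110 with all), 290 to 679 in Cp190 RNAi Chro RNAi (436), and from 169 to 336 for BEAF-32 RNAi (241). Against BEAF-32 RNAi the ranges were 108 to 2129 for BEAF-32 RNAi Dref RNAi (284) and 31 to 449 for Cp190 RNAi Chro RNAi (78), and between the 2 double knockdowns 0 to 629. The highest value came each time without BEAF-32 RNAi replicate 3. With 2 groups only in the fit, calls against WT were 670 with Cp190 RNAi Chro RNAi and 109 with BEAF-32 RNAi, 2 and 0 for the double knockdowns against BEAF-32 RNAi (151 of 1170 genes at an unadjusted p under 0.05 where edgeR called 0), and 483 between them. DESeq2 called 563 and 133 against BEAF-32 RNAi and 2 between the double knockdowns. With TADs of 120 kb or more, 659 genes were called with Cp190 RNAi Chro RNAi and 408 with BEAF-32 RNAi against WT and 119 for Cp190 RNAi Chro RNAi against BEAF-32 RNAi, and with 200 kb or more 242, 106 and 44.

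Same-numbered libraries of different groups did not deviate together (correlations -0.2 to 0.0651 over 6788 genes), and the main fit did not pair them. Such a check can miss handling that they shared. With the replicate block, calls were 1999, 407 and 218 against WT, 212 and 56 against BEAF-32 RNAi and 0 between the double knockdowns, where 170 genes had an unadjusted p under 0.05.

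Long TADs numbered 226 with Cp190 RNAi Chro RNAi and 183 with BEAF-32 RNAi at 120 kb or more, and 156, 71 and 47 at 200 kb or more in the order of the lists. The strong lists held 288 and 273 for the last 2. Genes per 100 kb in long TADs were 7.45 with Cp190 RNAi Chro RNAi and 7.82 with BEAF-32 RNAi at 200 kb or more, and 12.8, 9.15 and 9.95 without chromosomes 4 and Y. With strong borders alone, long TADs with an inner border were 32.8% and 50.2% for BEAF-32 RNAi Dref RNAi, 20.3% and 28.3% for Cp190 RNAi Chro RNAi, and 18.9% and 19.8% for BEAF-32 RNAi. With borders matched within 10 kb 42.8% of Cp190 RNAi Chro RNAi members had an inner BEAF-32 RNAi Dref RNAi border, and at 200 kb or more 98.1% of BEAF-32 RNAi Dref RNAi members had one of BEAF-32 RNAi. With a window of 1 kb, chosen after seeing the data, an expressed start lay at 68.7% of shared inner borders and 29.2% of ends of BEAF-32 RNAi Dref RNAi long TADs.

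Of 1997 alternative values for 173 named gene comparisons 1678 kept their side of the threshold, 312 lost it, 7 gained it and 0 reversed. The causes were not tested. No Hi-C depth or replicate TAD list was used here, so no error can be given for the number of long TADs.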
